A study of Homo sapiens with 4 samples.

Results

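The growth and angiogenic factors that epithelial cells secrete under stress were represented here by 8 genes, GDF15, VEGFA, VEGFC, STC1, STC2, ADM, ANGPTL4 and INHBA, of 19775 genes with a probe set of their own on the array. They were taken by symbol from the platform annotation, with every probe set that names only that gene, which gave 19 of 41091 such probe sets. No further probe set named a member together with another gene. RNA was taken from MCF10A, an established non-tumorigenic line of human mammary epithelium, kept in DFCI-1 medium under normal growth, and was measured on Affymetrix U133 Plus 2.0 arrays. Cells with a control short hairpin RNA were on the control arrays (n = 2), and the arrays labelled double knockdown (n = 2, dKD in the figures) held cells with hairpins against CBL and CBLB, ubiquitin ligases that turn over activated receptor tyrosine kinases. The sources used here do not say whether either line was a clone or a pool, or whether a group's arrays are separate cultures, so the p-values cover the spread of these arrays alone and that spread may be technical.

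The members are secreted proteins with different uses. GDF15 is a distant member of the TGF-beta family, released by stressed cells, that acts on the brain through the receptor GFRAL. VEGFA and VEGFC drive the growth of blood and lymphatic vessels through receptor tyrosine kinases. STC1 and STC2 are stanniocalcins, glycoprotein hormones, and STC2 inhibits the protease that frees insulin-like growth factor from its binding protein. ADM encodes adrenomedullin, a peptide that widens vessels, ANGPTL4 inhibits lipoprotein lipase, and INHBA encodes the subunit of activin A. Their genes have different upstream signals: the integrated stress response, in which ATF4 and CHOP are made or activated when proteins misfold or amino acids run short, is known to act on GDF15, VEGFA and STC2, while hypoxia-inducible factors are known to act on VEGFA, ADM, ANGPTL4 and STC2.

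GDF15, VEGFA, STC2 and STC1 were higher on the arrays labelled double knockdown, and VEGFC, ADM, ANGPTL4 and INHBA did not pass the test. By the brightest probe set of each gene, and on the scale of log2(intensity + 16), GDF15 rose 3.79-fold, STC2 2.50-fold, VEGFA 2.42-fold and STC1 1.30-fold. All 8 members were bright enough to be tested, and 4 of them rose and 0 fell at an adjusted p under 0.05 (limma). INHBA, which was lower, had an unadjusted limma p of 0.00850 and did not pass after adjustment. Of all 12965 genes tested, 9.40% were called higher and 6.59% lower. The median log2 change of the 8 members was 0.26, against -0.01 over all genes tested. A fold change on this scale understates the change of a dim probe set, so folds of intensity without the constant are given too for the members that rose.

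**Figure D1:**
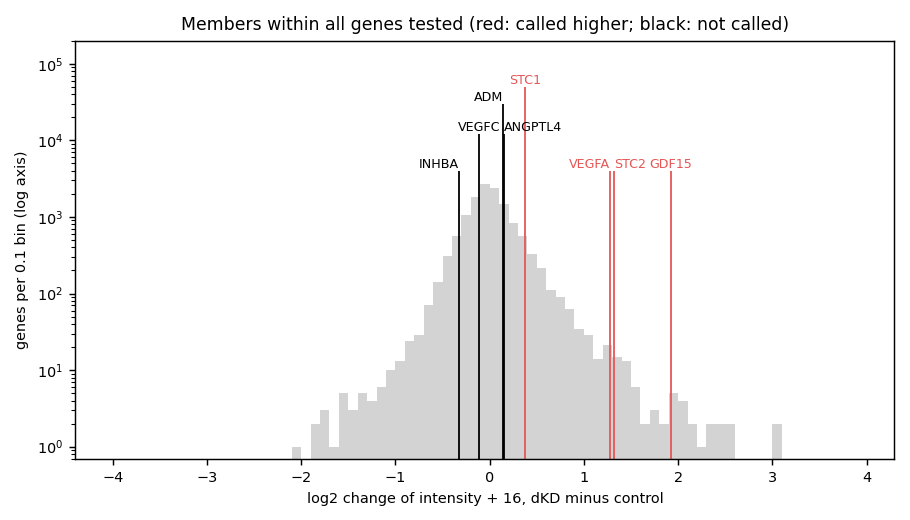
The histogram counts all genes tested by log2 change of intensity + 16, labelled double knockdown minus control, with a log vertical axis, and each vertical line marks 1 member. GDF15 (1.92), STC2 (1.32) and VEGFA (1.27) lie in the right tail, and STC1 (0.37) and the 4 members without a call lie within the bulk.

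Promoter sequences of 6 of the 8 members were taken from the RefSeq table of the GRCh38.p14 assembly, all but VEGFA and STC1. The 250 bases before the annotated start are shown for the pair that rose, GDF15 and STC2, and for ADM and ANGPTL4, which are known hypoxia targets and were not called. They are written 5′ to 3′ on the strand of the gene. Capitals mark every match to a motif that was searched on both strands.
GDF15 (chr19:18385908-18386157, plus strand): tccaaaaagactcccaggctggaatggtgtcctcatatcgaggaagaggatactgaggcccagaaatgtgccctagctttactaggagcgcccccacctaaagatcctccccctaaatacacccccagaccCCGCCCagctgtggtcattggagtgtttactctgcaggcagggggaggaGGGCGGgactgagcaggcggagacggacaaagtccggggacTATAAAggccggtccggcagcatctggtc
STC2 (chr5:173328415-173328664, minus strand): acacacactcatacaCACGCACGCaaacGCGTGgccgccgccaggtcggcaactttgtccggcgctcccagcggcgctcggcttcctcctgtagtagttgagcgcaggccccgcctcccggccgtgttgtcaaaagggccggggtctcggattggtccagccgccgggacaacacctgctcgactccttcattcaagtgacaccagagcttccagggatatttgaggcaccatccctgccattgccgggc
ADM (chr11:10304823-10305072, plus strand): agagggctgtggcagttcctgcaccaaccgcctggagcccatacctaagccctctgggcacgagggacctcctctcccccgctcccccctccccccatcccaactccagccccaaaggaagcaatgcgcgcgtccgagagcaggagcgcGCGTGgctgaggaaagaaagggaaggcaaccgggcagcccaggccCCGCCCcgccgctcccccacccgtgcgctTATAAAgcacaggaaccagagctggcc
ANGPTL4 (chr19:8363905-8364154, plus strand): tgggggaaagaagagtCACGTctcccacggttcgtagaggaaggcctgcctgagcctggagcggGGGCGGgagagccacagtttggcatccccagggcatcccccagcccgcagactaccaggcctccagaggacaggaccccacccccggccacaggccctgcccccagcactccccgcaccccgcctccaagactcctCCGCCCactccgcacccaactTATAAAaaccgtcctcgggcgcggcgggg
The motifs were TGATGNAA (the element bound by ATF4 with C/EBP proteins), ACGTG and GCGTG (cores of the hypoxia response element), the ER stress response element (the spaced CCAAT and CCACG form), TGANTCA (AP-1), GGGCGG (the GC box) and TATAAA (the TATA box). None of the 6 members' windows held TGATGNAA, which occurred in 3.14% of 35116 windows of the same length, and none held the ER stress element (0.074%) or TGANTCA (6.57%). ACGTG was in ANGPTL4 only of the 6 (18.5% of all windows), and GCGTG in VEGFC, STC2 and ADM (32.2%). STC2 held GCGTG at 3 places, of which 2 overlap by a base. GC boxes were in GDF15, VEGFC, ADM and ANGPTL4 (42.6%), and TATAAA in GDF15, ADM, ANGPTL4 and INHBA (10.7%). Different motifs did not overlap in these windows. The pair that rose shared none of the motifs searched: the window of GDF15 held GC boxes and a TATA box 24 to 29 bases before the start, that of STC2 only GCGTG. A match is a description of letters and not of a bound site. Bases outside these windows were not searched, so the absence of a motif covers these 250 bases only.

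GDF15, the member with the largest change, read 133 and 121 on the control arrays and 543 and 509 on the arrays labelled double knockdown. Both arrays of the second group lay far above both controls, and the arrays within each group differed little. The mean rose from 127 ± 8.21 (SD, n = 2) to 526 ± 24.4, or 4.14-fold without the constant (log2 change 1.92 ± 0.09 SE, 95% interval 1.71 to 2.13, limma adjusted p = 2.94e-05). It had the 18th largest rise of all 12965 genes tested. This value rests on a single probe set, 221577_x_at, of a type (x) that can match other transcripts. The other GDF15 probe sets, 221576_at and 229868_s_at, had intensities of 6.56 to 11.04 on all 4 arrays, below the brightness minimum of 14.6, and give no second reading of the gene. When its 3 probe sets were averaged, GDF15 had a log2 change of 0.63 (adjusted p = 0.00278).

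VEGFA, the main growth factor of blood vessels, was measured by 4 probe sets, and all were higher on both arrays labelled double knockdown than on both controls. The brightest, 210512_s_at, read 448 and 303 on the control arrays against 949 and 880. The controls were spread wider here than the arrays labelled double knockdown, yet the groups did not overlap. The mean rose from 376 ± 103 (SD, n = 2) to 914 ± 48.4, 2.43-fold without the constant (log2 change 1.27 ± 0.16 SE, 95% interval 0.90 to 1.65, adjusted p = 0.00265 by limma). Without control replicate 1 the log2 change was 1.54, and without control replicate 2 it was 1.00, with the call kept in both. With the 4 probe sets averaged it was 0.82 (adjusted p = 0.00717).

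The other VEGFA probe sets were tested in a second limma fit, over all 22945 probe sets with 1 gene above the brightness minimum. In that fit 7.95% of probe sets were called higher and 5.70% lower. Probe set 212171_x_at read 184 and 155 in the control and the same value, 312, on both arrays labelled double knockdown (log2 change 0.83 ± 0.10 SE, adjusted p = 0.00309). Probe set 211527_x_at read 46.4 and 43.4 against 82.3 and 101 (log2 change 0.81 ± 0.11 SE, adjusted p = 0.00392). The last, 210513_s_at, read 46.8 and 36.0 against 54.6 and 62.7 and did not pass the test (log2 change 0.38 ± 0.12 SE, adjusted p = 0.0682). It passed without control replicate 1 (0.0399). Without double knockdown replicate 2, 212171_x_at had adjusted p = 0.0966 and 211527_x_at 0.0940, and without replicate 1 the former had 0.0797.

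The size of the difference varied among the VEGFA probe sets. Without the constant they were 2.43-fold, 1.84-fold, 2.04-fold and 1.42-fold from the brightest to the dimmest. The ratio of 210512_s_at to 210513_s_at was 9.58 and 8.41 on the control arrays and 17.4 and 14.03 on the arrays labelled double knockdown. The ratio was higher on both arrays of the second group. One of these probe sets is dim, and the part of background signal in the ratio was not tested. Both are of a type (s) that can match several transcripts, and which VEGFA transcripts each one matches was not analysed here.

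STC2, the stanniocalcin known as a target of the integrated stress response, was higher on both of its probe sets. The brighter, 203438_at, read 158 and 106 in the control and 372 and 326 on the arrays labelled double knockdown. As for VEGFA, control replicate 2 was the lowest array and the groups did not overlap. The mean rose from 132 ± 36.9 (SD, n = 2) to 349 ± 32.3, 2.65-fold without the constant (log2 change 1.32 ± 0.16 SE, 95% interval 0.95 to 1.70, limma adjusted p = 0.00212). The other, 203439_s_at, read 60.0 and 57.5 against 119 and 91.1, 1.79-fold without the constant. In the fit over probe sets its log2 change was 0.69 ± 0.12 SE with adjusted p = 0.0119, and 0.121 and 0.0628 without double knockdown replicate 1 or 2. The first of these probe sets is of the type made for a single transcript, and STC2 was the only member called higher by such a probe set.

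STC1 rose less. Its brightest probe set, 204595_s_at, read 41.9 and 35.2 in the control and 57.3 and 52.1 on the arrays labelled double knockdown, 1.42-fold higher without the constant. The groups did not overlap, and the gap between them was wider than the spread of either pair. The log2 change was 0.37 ± 0.10 SE with a 95% interval of 0.15 to 0.60 (limma adjusted p = 0.0390). This call was lost without control replicate 2 (adjusted p = 0.106) or either array labelled double knockdown (0.246 and 0.141), with quantile normalization (0.0515), with a constant of 64 (0.0726) and with no brightness filter (0.0742). A dimmer probe set, 204597_x_at, read 21.2 and 18.6 against 39.7 and 45.1, 2.14-fold higher without the constant (log2 change 0.70 ± 0.09 SE, adjusted p = 0.00426 in the fit over probe sets, and 0.0681 and 0.113 without double knockdown replicate 1 or 2). Its log2 change was 1.06 with a constant of 1 and 0.34 with 64. Probe set 204596_s_at lay about at the brightness minimum, at 15.1 and 12.9 against 13.8 and 16.5.

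**Figure D2:**
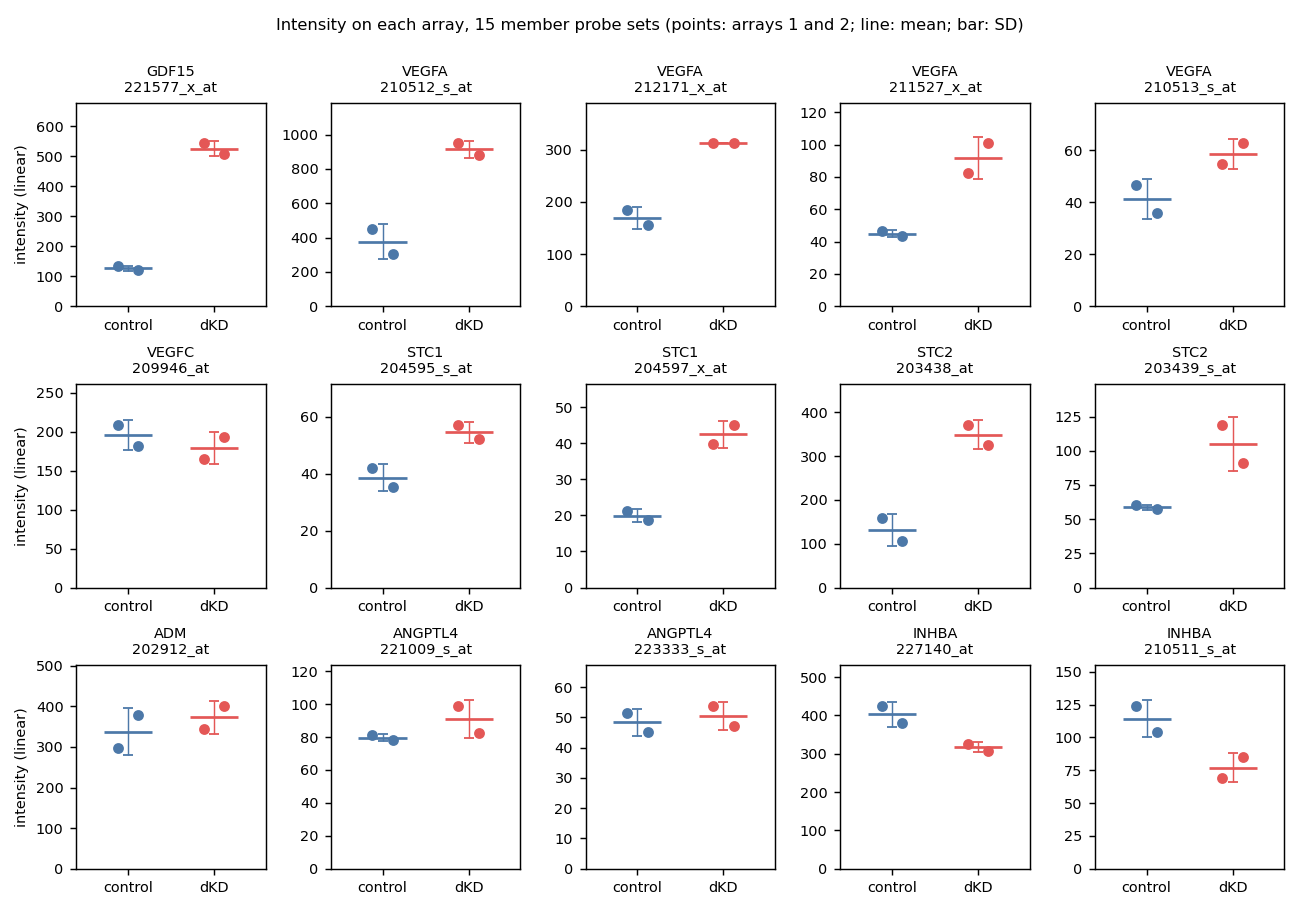
Each panel plots the linear intensity of 1 member probe set on each array (points), with the group mean (line) and SD (bar), n = 2 per group, from an axis that starts at 0. GDF15, VEGFA, STC1 and STC2 have both arrays labelled double knockdown above both controls in each panel, INHBA has both below, and VEGFC, ADM and the second ANGPTL4 probe set overlap.

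INHBA, the subunit of activin A, moved the other way. Its brightest probe set, 227140_at, read 425 and 380 in the control and 326 and 307 on the arrays labelled double knockdown. Both arrays of the second group were below both controls. The mean went from 402 ± 32.0 (SD, n = 2) to 317 ± 13.3, and the log2 change of -0.33 ± 0.09 SE (95% interval -0.55 to -0.11) had a limma adjusted p of 0.0519, just short of the threshold. The second probe set, 210511_s_at, read 124 and 104 against 69.0 and 84.8 and fell 1.40-fold on the scale with the constant (log2 change -0.49 ± 0.12 SE, adjusted p = 0.0347 in the fit over probe sets). That call was lost without control replicate 1 (0.120) and without either array labelled double knockdown (0.266 and 0.15), and also with either other constant, no brightness filter or the replicate block (0.0574 to 0.116). The brightest probe set passed the test over genes with array median centring (0.0474), and without control replicate 2 its log2 change was -0.41. The mean of all the gene's probe sets, dim ones included, passed that test too (log2 change -0.28, 0.0472). The last INHBA probe set, 204926_at, read 4.27 to 4.92 on all arrays, below the brightness minimum.

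ADM, ANGPTL4 and VEGFC, of which the first pair are common hypoxia targets, did not pass the test. ADM, on 202912_at, had control values of 297 and 378 against 344 and 401 on the arrays labelled double knockdown. The groups overlapped, and the log2 change of 0.14 ± 0.13 SE had a 95% interval of -0.16 to 0.44 (limma adjusted p = 0.523). Without control replicate 1 its sign turned (-0.024). ANGPTL4 read 81.3 and 78.1 against 99.0 and 82.5 on 221009_s_at, with a log2 change of 0.15 and an interval of -0.08 to 0.39 (adjusted p = 0.358). These groups did not overlap, but the difference between them was smaller than that between the arrays labelled double knockdown. The second ANGPTL4 probe set, 223333_s_at, read 51.4 and 45.2 against 53.8 and 47.1, a log2 change of 0.05 in the fit over probe sets, and its groups overlapped. VEGFC read 209 and 182 against 165 and 193 on 209946_at, with overlapping groups, a log2 change of -0.12 and an interval of -0.37 to 0.14 (adjusted p = 0.538).

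The upper bounds of these intervals, at most 0.44, lie below the lower bounds of GDF15 (1.71), STC2 (0.95) and VEGFA (0.90). This is by the brightest probe set of each gene and does not hold for every probe set. In the fit over probe sets, 210513_s_at of VEGFA (0.11 to 0.65) and 203439_s_at of STC2 (0.41 to 0.97) overlapped the interval of ADM (-0.16 to 0.45). Over all 15 member probe sets above the minimum, several of which read the same gene, 8 were called higher, 1 lower and 6 not. Of all probe sets tested, 7.95% were called higher and 5.70% lower. Groups did not overlap for 12 of the 15, against 56.7% of all probe sets. By gene, 6 of the 8 members had groups apart, against 57.5% of all genes, a share near the background. The count of 8 fell to 2, GDF15 and 211527_x_at of VEGFA, without double knockdown replicate 1 and to 1, GDF15, without double knockdown replicate 2, in fits whose error is that of the controls. In the separate fit over genes, the number called higher in the whole table also dropped from 1219 without either array labelled double knockdown. By gene, GDF15, VEGFA and STC2 kept their calls in each fit that left out 1 array.

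**Figure D3:**
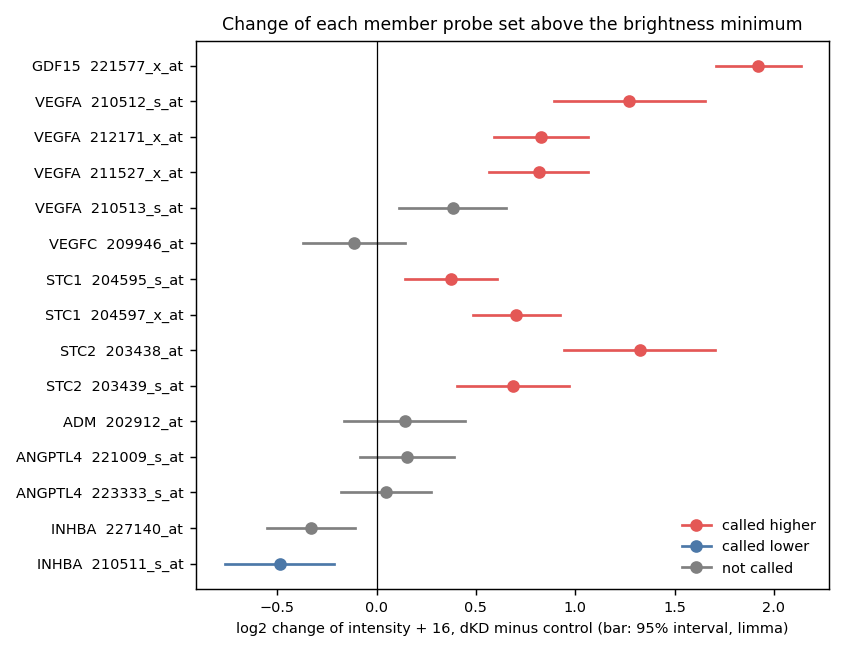
Points give the log2 change of intensity + 16 (labelled double knockdown minus control) of each member probe set above the brightness minimum and bars its 95% interval, from limma over all probe sets. GDF15 lies highest at 1.92, the 4 VEGFA probe sets spread from 0.38 to 1.27, and the INHBA pair lies below 0.

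The members' profiles over the 4 arrays were then compared with those of all other genes, by the Euclidean distance between log2 values centred on each gene's mean. VEGFA and STC2 were each other's nearest gene of all 12965, at a distance of 0.075. Both read lower on control replicate 2 than on control replicate 1 and lower on double knockdown replicate 2 than on replicate 1. Within a distance of 0.5 lay 88 genes for VEGFA and 77 for STC2. The gene nearest to GDF15 was ID1, an inhibitor of basic helix-loop-helix transcription factors, which read 999 and 863 on the control arrays against 3674 and 3817, at a distance of 0.14. For the 5 members with small changes, 8054 to 11155 genes lay within 0.5, so their nearest genes carry little: AURKB for STC1, BTBD1 for INHBA, YBEY for ADM, SUN5 for ANGPTL4 and PITPNM1 for VEGFC. With 4 arrays such a likeness describes these arrays only.

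Receptors and relatives of the members were mostly dim or without a call, and a few had no probe set of their own. Of the VEGF family and its receptors, 5 of 8 genes were tested and 0 called, at a median log2 change of 0.12. The co-receptor NRP1 had a log2 change of 0.35 (limma adjusted p = 0.0932), the receptor FLT1 0.12 (0.398) and the ligand PGF 0.13 (0.518). KDR and FLT4, the main receptors of VEGFA and VEGFC, lay below the brightness minimum. NRP1 passed with the replicate block (0.0284), and with its probe sets averaged had a log2 change of 0.048 (0.674). Among relatives and receptors of adrenomedullin, 4 of 11 were tested. ACKR3, a scavenger receptor, rose 1.29-fold (log2 change 0.36, adjusted p = 0.0314), from a control mean below the minimum, while CALCA (-0.10) and RAMP1 (0.03) were not called. ACKR3 lost its call without control replicate 2 (0.0776), without either array labelled double knockdown (0.231 and 0.129), with the mean of its probe sets (log2 change 0.14, 0.186) and with a constant of 64 (0.15, 0.116), while a constant of 1 gave 0.68. CALCRL, the receptor of adrenomedullin, and its partners RAMP2 and RAMP3 lay below the minimum. Of the angiopoietins, angiopoietin-like relatives and lipoprotein lipase, 6 of 14 were tested and ANGPT1, a ligand of the receptor TEK, rose 1.54-fold (log2 change 0.62, adjusted p = 0.00818), again from a control mean below the minimum. It had adjusted p = 0.0722 without double knockdown replicate 1. GPIHBP1 (-0.16) and ANGPT4 (0.10) were not called, and lipoprotein lipase itself, the target of ANGPTL4, lay below the minimum.

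For activin and GDF15, 17 of 18 subunits, binding proteins, receptors and SMADs had a probe set of their own. GFRAL, the receptor of GDF15, had none. Of the 18, 13 were tested, of which 1 rose and 2 fell (median log2 change -0.02). TGFBR3, a co-receptor of the TGF-beta family, fell from 90.8 ± 15.1 (SD, n = 2) to 50.04 ± 1.44 (log2 change -0.69 ± 0.11 SE, limma adjusted p = 0.00704). BAMBI, a decoy receptor that dampens this signalling, fell 1.32-fold, or 1.45-fold without the constant (log2 change -0.40, adjusted p = 0.0206). The activin receptor ACVR2B rose 1.54-fold, or 1.75-fold without the constant (0.62, adjusted p = 0.0267), but with the mean of its probe sets it had a log2 change of 0.19 and adjusted p = 0.115. TGFBR3 lost its call without double knockdown replicate 1 (0.0508), BAMBI without control replicate 1 (0.0554) or either array labelled double knockdown (0.104 and 0.184), and ACVR2B without control replicate 2 (0.0748) or double knockdown replicate 2 (0.175), with a constant of 64 (log2 change 0.36, 0.0610) and with no brightness filter (0.101). The convertases that cut precursors of these factors and the amidating enzyme of adrenomedullin had 4 of 5 tested and 0 called: PCSK7 (log2 change -0.22), FURIN (-0.22) and PAM (-0.11). FURIN depended on the control arrays: it passed without control replicate 2 (-0.39, adjusted p = 0.0469) and was at -0.053 (0.795) without control replicate 1.

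The transcription factors known to act on member genes and the other targets of the same signals were counted in the same fit. Over all genes tested in it, 9.40% were called higher and 6.59% lower. Of 19 factors tested, 4 rose and 0 fell, with a median log2 change of 0.06. DDIT3, which encodes CHOP, had a log2 change of 3.02, XBP1 1.02 and ATF3 0.68 (limma adjusted p = 1.33e-05, 0.000630 and 0.00485). ATF4 was the remaining one, at 0.39, and is named outside the rule because the count was small. Of 15 other targets of the integrated stress response, 9 rose and 1 fell, with a median log2 change of 0.65, the highest of the lists. After DDIT3, the cystine transporter SLC7A11 (1.30) and CHAC1, which degrades glutathione (1.05), had the smallest p. The gene that fell was ASNS (-0.65). Of 20 other hypoxia-responsive genes, 7 rose and 0 fell, with a median of 0.13: ANKRD37 rose 2.11-fold, the collagen hydroxylase P4HA1 1.85-fold and INSIG2, which holds back sterol synthesis, 1.46-fold. INSIG2 had adjusted p = 0.0666 without double knockdown replicate 2. The lists share DDIT3, ATF3, CEBPB and DDIT4, and they were chosen with earlier results of these data known, so their counts are not independent of each other or of the members.

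Other secreted growth and angiogenic factors did not move in a single direction. Of 23 tested, 6 rose and 5 fell, and the median log2 change was 0.03. FGFBP1, a carrier of fibroblast growth factors, fell 3.30-fold (log2 change -1.72), the chemokine CXCL1 fell 1.83-fold (-0.87) and the EGFR ligand EREG rose 1.92-fold (0.94). They had the smallest p of the list, with adjusted p of 3.05e-05, 0.000800 and 0.00112 (limma). The largest fall of the list was that of THBS1 (log2 change -1.89, limma adjusted p = 0.00198). Its control arrays were spread widely, at 328 and 177, against 56.0 and 50.8 on the arrays labelled double knockdown. The largest rise was that of ANG (1.09, 0.00172). Against this list, 4 of 8 members rose and 0 fell, and no test of the difference was made.

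**Figure D4:**
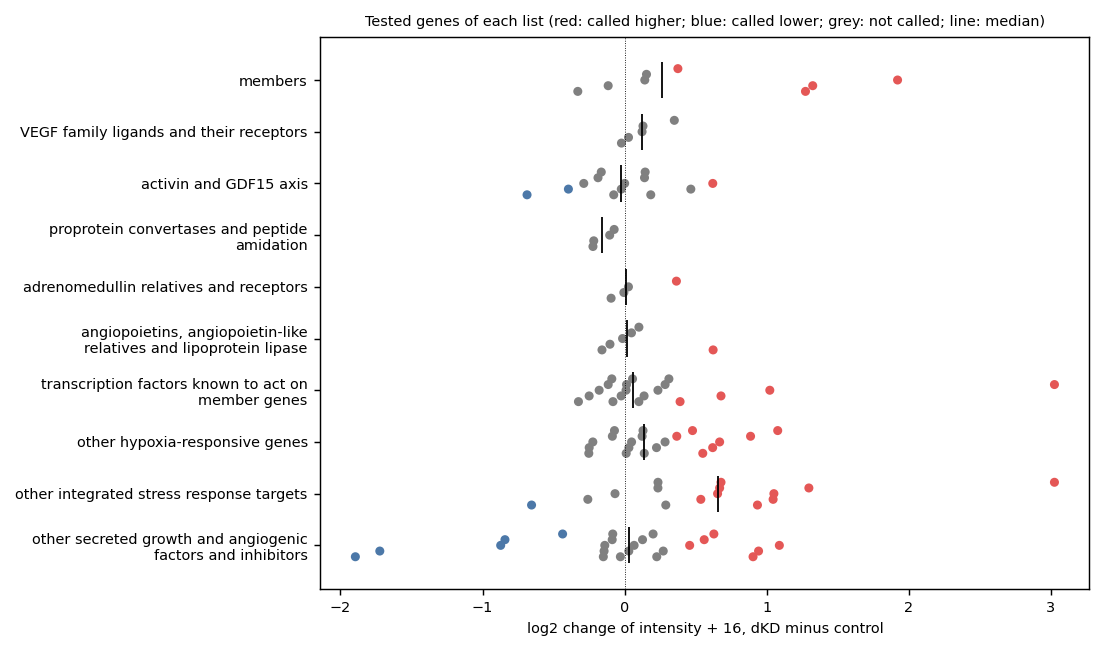
Each point is the log2 change of intensity + 16 (labelled double knockdown minus control) of 1 tested gene by list, coloured by its call, and each vertical line is the list's median. The medians run from -0.16 for the convertases to 0.65 for other targets of the integrated stress response, with the members at 0.26.

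As a check of the arrays, the targeted CBL was lower (log2 change -1.37, limma adjusted p = 0.00139) and CBLB was higher (0.45, 0.0148, and 0.0867 and 0.133 without double knockdown replicate 1 or 2), against its label, so every direction here is that of the arrays labelled double knockdown. Of 10 epithelial markers of the line, 7 had a probe set with 1 gene and all 7 were above the minimum. Their summed intensity was 40658 to 40809 in the control and 27499 to 27656 in the other group, with KRT14 and KRT5 lower and KRT8 and KRT18 higher. The sums here and below are over all genes of a list with a probe set, those under the minimum included. Endothelial markers, which matter because endothelial cells express several of these factors, were above the minimum for 2 of 8 genes, with sums over all 8 of 102 to 110 and 95.9 to 98.1, and CDH5, KDR and VWF were below it. Fibroblast markers were above it for 4 of 7 (sums of 538 to 565 and 502 to 519), of which DCN, a matrix proteoglycan, fell from 127 ± 0.739 (SD, n = 2) to 66.4 ± 16.2 (log2 change -0.81, limma adjusted p = 0.00704) and the other 3 were not called, and leukocyte markers were above it for 3 of 5 (78.8 to 84.6 and 82.4 to 82.5). The part of the keratin and DCN differences in the members' changes was not tested. Fewer cells of a kind and less RNA per cell cannot be told apart in such samples.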

How the data were processed

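RNA of MCF10A cells was measured on 4 arrays, 2 per group, with groups and sample numbers from the titles. The deposited values are probe set intensities on a linear scale, judged from their range. The authors' summary and normalization method was not stated in the sources used here. Array medians were 14.5 to 14.7, and nothing was normalized further. Symbols came from the platform annotation, updated by gene identifier through the RefSeq table of GRCh38.p14.

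Values were taken as log2(intensity + 16). limma 3.58.1 in R 4.3.3 (lmFit, eBayes, two-sided, no covariate) was fitted over 12965 genes, each by its brightest probe set, with a mean of at least 14.6, the median of all values, and over all 22945 probe sets with 1 gene above it. P-values were adjusted by Benjamini-Hochberg over each fit, with calls under 0.05, and standard errors are moderated. Probe sets below the minimum got no call. The code was tested on simulated data. The number of arrays limits the precision. Alternatives were other constants, centring, quantile normalization, brightness filters, probe set rules, an intensity trend, the sample number as a block and each array left out.

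The members and lists were chosen with earlier results of these data known. Named were the members, CBL, CBLB, the 3 genes of each list with the smallest p, and the gene nearest to each member. ATF4, ASNS, CEBPB, DDIT4, DCN, THBS1, ANG, the keratins and genes below the minimum do not come from this rule. They were chosen with their values known.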

Additional observations from a re-analysis of the deposited data

How the results depend on the processing

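GDF15, STC2 and VEGFA kept their direction and call by gene in each alternative that could be run for them (13, 14 and 13), with log2 changes of 0.63 to 2.04, 1.01 to 1.58 and 0.82 to 1.54. The lowest values of all 3 came with a gene's probe sets averaged. In the fit over probe sets, the brightest probe sets of VEGFA and STC2 had adjusted p up to 0.0986 and 0.0866 without an array labelled double knockdown. With a gene's probe sets averaged, log2 changes were smaller for CBL (-0.41), XBP1 (0.54), ATF3 (0.22), ANKRD37 (0.51), P4HA1 (0.45), EREG (0.53) and ANGPT1 (0.27), with calls kept. The constants of 1 and 64 gave 1.06 and 0.27 for ANGPT1. With no brightness filter 203439_s_at of STC2 had adjusted p = 0.0633. INHBA was called lower in 7 of 14 alternatives by gene, and its log2 change ran from -0.41 to -0.25 over all 14.

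With only probe sets of the type made for a single transcript, 4 members could be tested, of which 1 was called higher (STC2) and 1 lower (INHBA). In that setting 9.94% of all 9760 genes tested were called higher and 5.92% lower. With a constant of 64, centring, a minimum of 64, probe set means or the replicate block, 6.22% to 11.1% of genes were called lower. Members called lower by gene numbered 1 with a constant of 64, array median centring, a minimum of 64, the mean of probe sets or the replicate block, and 0 to 1 over the fits without 1 array. Those called higher numbered 3 to 4 over these fits. Member probe sets called lower numbered 0 with a constant of 1 or no brightness filter, 2 with a minimum of 64 and 0 to 2 over the fits without 1 array. Member probe sets called higher numbered 1 to 9, all genes called higher 376 to 1123 and all genes called lower 155 to 880 over the same fits.

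Signs turned only in genes without a call. Over the fits without 1 array, the log2 change ran from -0.024 to 0.31 for ADM, by gene and by probe set, from -0.026 to 0.12 for the ANGPTL4 probe set 223333_s_at, from -0.015 to 0.27 for PGF, from -0.20 to 0.011 for CALCA, from -0.042 to 0.29 for YBEY and from -0.028 to 0.082 for RAMP1. RAMP1 was at -0.014 with quantile normalization, and SUN5 at -0.0022 with the mean of probe sets and -0.090 with the single-transcript type. The cause was not tested.

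The sample numbers share no stated culture or day. Same-numbered arrays deviated together with r = 0.24 across genes, from a single independent pair of deviations, so the numbers were not taken to pair the samples. With the replicate block 1424 genes were called higher and 1081 lower, 4 members higher and 1, INHBA, lower (adjusted p = 0.0354), and 8 member probe sets higher and 1 lower. Dim probe sets carry little signal over background, which limits STC1 and the receptors most.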
